A study of Homo sapiens with 4 samples.

Results

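The PIM kinases and the genes of IL-6 family signalling through STAT3 were examined in OE33 cells depleted of ARID1A. The 10 genes were PIM1, PIM2, PIM3, STAT3, SOCS2, SOCS3, IL6ST, LIFR, OSMR and LIF, taken from 18132 genes with a probe set of their own on the array. A probe set is a group of short probes whose signals are summarised into 1 value per array, and 34 of the 49293 probe sets tested were paired with 1 of these genes and no other. Probe sets were found by gene symbol, and the genes were chosen by function with their knockdown against mock values on these arrays already known. The p-values given for them therefore place each gene within the fit over the whole table and are a description, not independent support.

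OE33 cells are an established human line grown out of an oesophageal adenocarcinoma. The knockdown cells received pooled siRNAs targeting ARID1A, the gene of a subunit of SWI/SNF, a complex that moves nucleosomes. The mock cells received a pool of non-targeting siRNAs, also at 50 nM, and both were harvested 48 hours after transfection. The sample records also give 15% serum and 24 hours after plating for every sample. Each condition was measured on 2 arrays labelled as biological replicates, all from 1 cell line and 1 siRNA pool per condition, and no label says whether the replicates came from separately grown cultures.

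IL-6 family cytokines such as IL-6, LIF and oncostatin M signal through gp130, a receptor chain they share, which IL6ST encodes. Gp130 pairs with a cytokine-specific chain, Janus kinases bound to the receptors phosphorylate STAT3, and STAT3 dimers enter the nucleus and activate genes that include SOCS3, a feedback inhibitor, and PIM1. The PIM kinases are serine/threonine kinases that are active as soon as they are made, so that their amount, rather than a switch, sets their activity. STAT3 activity depends on phosphorylation, which an mRNA array does not measure.

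ARID1A itself was 3.43-fold lower at its brightest probe set, with log2 values of 7.53 and 7.53 in the knockdown arrays, against 9.28 and 9.33 in the mock arrays. Its log2 change was -1.78 (SE 0.0718, limma adjusted p = 0.0218). Of its 6 probe sets 4 passed as lower, 11742019_a_at had -0.36 (limma adjusted p = 0.213) and the dim 11746832_a_at had 0.11 with overlapping groups (limma adjusted p = 0.678). The 6 epithelial markers examined all lay at or above percentile 98.2 of probe set levels, while all 6 fibroblast markers, all 5 measured leukocyte markers and 4 of 5 endothelial markers lay below the median level. Mean marker levels in the knockdown and then the mock arrays were 13.2 and 13.2, against 13.2 and 13.2, for epithelial cells. They were 4.33 and 4.19, against 4.33 and 4.44, for fibroblasts. They were 4.81 and 4.78, against 4.84 and 4.84, for leukocytes, and 5.29 and 5.26, against 5.43 and 5.48, for endothelial cells. None of the markers passed the test. The 3′ minus 5′ signal of beta-actin, a measure of RNA integrity, came to 1.21 and 1.10 in the knockdown arrays, against 1.04 and 0.995 in mock. The same measure for GAPDH, 0.201 and 0.215 in the knockdown arrays, against 0.199 and 0.211 in mock, overlapped. The beta-actin measure moved with the condition, and its part in the changes below was not tested. In bulk RNA, fewer cells expressing a gene and less of its RNA per cell cannot be told apart.

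PIM1 was the 1 gene of the 10 that passed the test at its brightest probe set, as higher in the ARID1A knockdown cells. It was 1.59-fold higher there and between 1.39-fold and 2.11-fold higher over its 4 probe sets. Its paralogues PIM2 and PIM3 had changes close to 0. At the brightest probe set of each gene SOCS2 had the next largest change, 0.41 on the log2 scale, without passing the test. STAT3, SOCS3, LIF and the receptor genes had smaller or mixed changes. Over all probe sets 0.316% passed the threshold, an adjusted p under 0.05, and 0.150% passed it as higher in the knockdown. Among the 34 probe sets 1 passed, as higher. By gene, 0.403% of all genes passed, and 1 of the 10 did. Because these values were known when the genes were chosen, nothing is read from that difference.

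Promoter windows of the 3 PIM genes are shown because 1 paralogue differed between the conditions and the others had changes near 0. They are RefSeq sequences of GRCh38.p14, each 300 bases on the strand of the gene, from 250 bases before the transcription start to 50 bases after it. Capitals mark GGGCGG or its reverse complement, the GC box. The window of PIM1 is chr6:37169902-37170201 (plus strand), that of PIM2 is chrX:48918975-48919274 (minus strand) and that of PIM3 is chr22:49960522-49960821 (plus strand).
PIM1: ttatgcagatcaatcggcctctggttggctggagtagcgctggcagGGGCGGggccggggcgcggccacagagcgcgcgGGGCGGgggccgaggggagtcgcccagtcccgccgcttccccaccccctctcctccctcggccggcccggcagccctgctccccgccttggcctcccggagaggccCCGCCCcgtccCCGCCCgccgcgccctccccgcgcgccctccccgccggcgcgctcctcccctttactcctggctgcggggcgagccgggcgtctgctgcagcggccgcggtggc
PIM2: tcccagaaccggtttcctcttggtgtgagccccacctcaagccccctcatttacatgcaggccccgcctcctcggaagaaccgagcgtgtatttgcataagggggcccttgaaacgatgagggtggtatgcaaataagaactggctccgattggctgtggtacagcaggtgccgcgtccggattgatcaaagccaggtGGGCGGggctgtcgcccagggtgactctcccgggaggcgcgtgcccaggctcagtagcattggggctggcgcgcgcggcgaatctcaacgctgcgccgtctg
PIM3: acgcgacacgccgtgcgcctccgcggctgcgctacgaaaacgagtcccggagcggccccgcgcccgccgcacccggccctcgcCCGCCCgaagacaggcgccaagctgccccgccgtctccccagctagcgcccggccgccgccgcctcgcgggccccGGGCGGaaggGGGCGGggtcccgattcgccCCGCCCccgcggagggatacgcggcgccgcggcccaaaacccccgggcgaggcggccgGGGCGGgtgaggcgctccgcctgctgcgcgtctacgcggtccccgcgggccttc

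The PIM1 window held 4 GC boxes, that of PIM2 held 1 and that of PIM3 held 5. The letters of a GC box were found, on either strand, in 45% of 35116 windows of this length. Bases G and C made up 79.7% of the PIM1 window, 62.3% of that of PIM2 and 81.3% of that of PIM3, with 39, 23 and 56 CpG dinucleotides in the same order. GC boxes, GC content and CpG dinucleotides thus all ran in the order PIM3, PIM1, PIM2. A STAT-type motif, TTCNNNGAA, reads the same on both strands and stood in 7.66% of all windows. Its stricter form TTCCNGGAA, which is contained in it, stood in 1.15%. Of the 11 windows matched for 8 of the 10 genes, 2 held the looser motif and 0 the stricter one. Both matches belonged to windows of LIFR, as TTCCTTGAA, beginning 165 bases before one start site, and as TTCATCGAA, beginning 182 bases before another. The windows of the PIM genes, STAT3, SOCS3, IL6ST and OSMR held none, which says only that these letters are absent from these windows. The letters TATAAA, searched on both strands, stood in 1 of the 11 windows, that of a LIFR start site, and in 11.5% of all windows. No window was matched for SOCS2 and LIF.

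PIM1 encodes a kinase that promotes survival and proliferation, and its mRNA is a known product of cytokine signalling. At the brightest probe set, 11717257_s_at, PIM1 had log2 values of 9.86 and 9.80 in the knockdown arrays, against 9.16 and 9.17 in the mock arrays. The groups stood apart by 0.64, while arrays of the same group were 0.059 or less apart. The log2 change was 0.67 (SE 0.0722, 95% confidence interval 0.49 to 0.85, limma adjusted p = 0.0499), a 1.59-fold rise (1.40 to 1.80). This adjusted p lies at the edge of the threshold.

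The other 3 probe sets of PIM1 pointed the same way. Probe set 11717256_at had 9.33 and 9.56 in the knockdown arrays, against 8.72 and 8.53 in the mock arrays, a log2 change of 0.82 (95% confidence interval 0.54 to 1.10, limma adjusted p = 0.0645). The dimmer 11746350_a_at had 6.18 and 6.41, against 5.34 and 5.10 in mock, and the largest of the 34 changes, 1.08 (0.78 to 1.38, limma adjusted p = 0.0501). It ranked 25 among the rises of all probe sets. Probe set 11717258_a_at had 6.02 and 5.85, against 5.52 and 5.41 in mock, and a change of 0.47 (0.24 to 0.70, limma adjusted p = 0.114). In all 4 probe sets, against 24.2% of all probe sets tested, both knockdown arrays lay above both mock arrays, with gaps of 0.33 to 0.84. The sizes differed between probe sets, since the confidence intervals of 11746350_a_at and 11717258_a_at did not overlap.

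The brightest probe set ends in _s_at, a suffix for probes that can match more than 1 transcript. With such probe sets left out of the fit, PIM1 stood on 11717256_at and did not pass (change 0.82, limma adjusted p = 0.0752), and its 0.67 did not pass with the replicate number as a block (limma adjusted p = 0.255) or with any 1 array left out. With each array centred on its median 3 of the 4 PIM1 probe sets passed, and with an intensity trend in the prior spread all 4 did.

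PIM2 and PIM3 encode kinases with largely shared substrates. The 1 probe set of PIM2 had 6.03 and 6.22 in the knockdown arrays, against 6.14 and 6.12 in the mock arrays, with the mock values inside the range of the knockdown values. Its log2 change was -0.00 (95% confidence interval -0.23 to 0.22, limma adjusted p = 0.995). The 1 probe set of PIM3, an _s_at one, had 10.81 and 10.90, against 10.85 and 10.74 in mock, and these groups also overlapped. Its change was 0.06 (-0.15 to 0.26, limma adjusted p = 0.790). The intervals of PIM2 and PIM3 lay wholly below that of the brightest PIM1 probe set. The interval of the dimmer PIM1 probe set 11717258_a_at, 0.24 to 0.70, lay above that of PIM2 but overlapped that of PIM3. A rise of PIM2 or PIM3 by more than 0.26 on the log2 scale lies outside their own intervals.

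**Figure D1:**
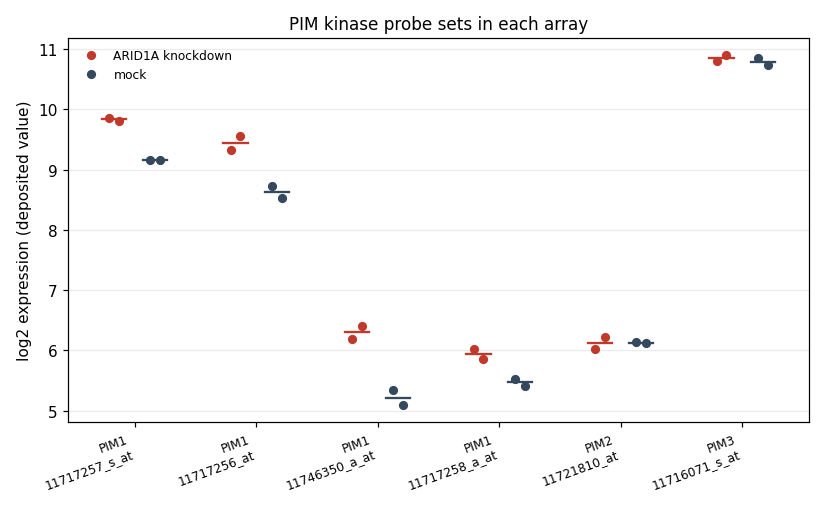
Log2 expression of the 6 PIM kinase probe sets in each array, as deposited, with knockdown arrays (red) left of mock arrays (dark) and a bar at each mean of 2 arrays. In the 4 PIM1 probe sets both knockdown arrays lay above both mock arrays, by 0.33 to 0.84, while the groups overlapped for PIM2 and PIM3.

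STAT3, the transcription factor of the pathway, had 3 probe sets. The brightest, 11720756_at, had 9.87 and 9.87 in the knockdown arrays, against 9.66 and 9.70 in the mock arrays, a log2 change of 0.19 (SE 0.0712, limma adjusted p = 0.284). Probe set 11750674_a_at had 8.58 and 8.52, against 8.41 and 8.34 in mock, a change of 0.17 (limma adjusted p = 0.337). Probe set 11720755_at had 8.78 and 8.78, against 8.84 and 8.83 in mock, a change of -0.05 (limma adjusted p = 0.770). The groups did not overlap in any of the 3, but the third ran opposite to the others and none passed. Over all probe sets the knockdown was higher without overlap in 24.2% and lower without overlap in 22.5%. The interval of the brightest, 0.01 to 0.37, excludes a STAT3 change as large as that of PIM1.

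SOCS2 is a suppressor of cytokine signalling best known for restraining growth hormone signalling. Its brightest probe set, 11735148_a_at, had 9.58 and 9.61 in the knockdown arrays, against 9.26 and 9.12 in the mock arrays. The log2 change was 0.41 (SE 0.0823, 95% confidence interval 0.20 to 0.61, limma adjusted p = 0.118). Its other probe set, 11751612_a_at, had 7.24 and 7.23, against 6.76 and 6.73 in mock, a change of 0.49 (0.31 to 0.66, limma adjusted p = 0.0714). The gaps between groups were 0.32 and 0.47, against distances of at most 0.14 within a group. Both probe sets placed the knockdown arrays above the mock arrays, as did 24.2% of all probe sets. Neither passed as deposited. Both passed with an intensity trend or without dim probe sets, where the limma adjusted p of the brightest was 0.00554 and 0.0293. As a gene, SOCS2 gained the call in 3 of 12 other settings, these and the mean of its probe sets. Its brightest probe set did not pass with shared probe sets left out (limma adjusted p = 0.139) or with a replicate block (0.341). With each array centred on its median 11751612_a_at passed and the brightest did not (limma adjusted p = 0.0950).

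SOCS3 binds gp130 and blocks the Janus kinases there, and its mRNA is a direct STAT3 product. Probe set 11719218_at had 6.46 and 6.56 in the knockdown arrays, against 6.31 and 6.09 in the mock arrays, a log2 change of 0.31 (SE 0.101, 95% confidence interval 0.06 to 0.56, limma adjusted p = 0.235). The dimmer 11719217_a_at had 5.19 and 4.84, against 4.84 and 5.04 in mock, a change of 0.08 (limma adjusted p = 0.836). The groups stood 0.15 apart at the first, less than the 0.22 between the mock arrays, and overlapped at the second. Without mock replicate 2 the change at the first was 0.20, and without mock replicate 1 it was 0.42.

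**Figure D2:**
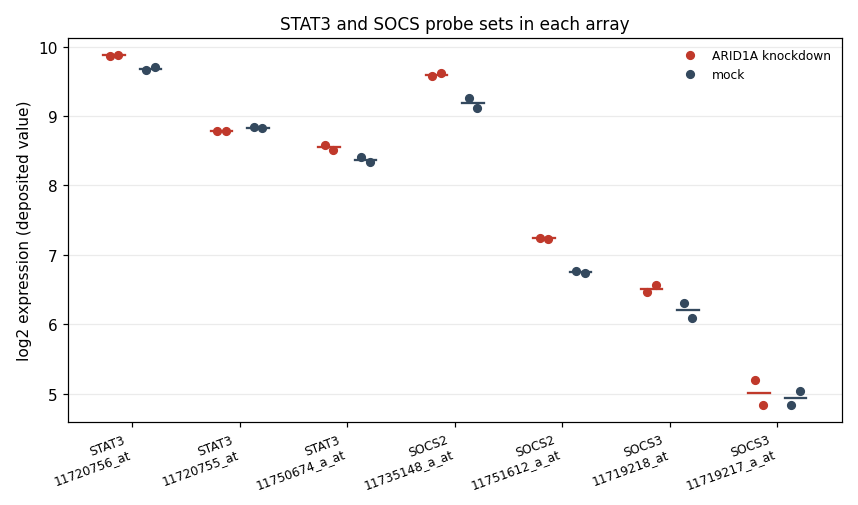
Log2 expression of the 7 probe sets of STAT3, SOCS2 and SOCS3 in each array, as deposited, with knockdown arrays (red) left of mock arrays (dark) and a bar at each mean of 2 arrays. Both SOCS2 probe sets put the knockdown arrays above the mock arrays, by 0.32 and 0.47, while the STAT3 probe sets differ in direction.

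LIF, the 1 ligand among the 10 genes, is a cytokine that binds LIFR and gp130. Its brightest probe set, 11758619_s_at, had 10.10 and 10.21 in the knockdown arrays, against 10.01 and 9.92 in the mock arrays, a log2 change of 0.19 (95% confidence interval -0.01 to 0.40, limma adjusted p = 0.332). The groups stood 0.091 apart, less than the 0.11 between the knockdown arrays. Probe set 11726498_at had 7.67 and 7.58, against 7.61 and 7.39 in mock, a change of 0.12 (limma adjusted p = 0.609). Probe set 11726497_at had 4.61 and 4.73, against 4.68 and 4.64 in mock, a change of 0.01 (limma adjusted p = 0.981). These other 2 had overlapping groups, and no LIF probe set passed.

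IL6ST, which encodes gp130, had 8 probe sets, and its 2 bright ones had log2 changes of 0.03 and 0.04. Probe set 11759037_s_at had 10.32 and 10.39 in the knockdown arrays, against 10.31 and 10.35 in the mock arrays, a log2 change of 0.03 (95% confidence interval -0.16 to 0.21, limma adjusted p = 0.901). Probe set 11759038_at had 7.81 and 7.83, against 7.79 and 7.77 in mock, a change of 0.04 (-0.13 to 0.22, limma adjusted p = 0.827). The groups overlapped at the first and stood 0.0225 apart at the second, where neither passed. The other 6 lay below the median level of all probe sets. Among these, 11730757_a_at had 4.47 and 4.48, against 4.25 and 4.03 in mock, a change of 0.33 (limma adjusted p = 0.205). Probe set 11753579_a_at had 4.87 and 4.69, against 4.42 and 4.54 in mock, a change of 0.30 (limma adjusted p = 0.221). In both of these dim probe sets the knockdown was higher without overlap. With 11759038_at this held for 3 of the 8, against 24.2% of all probe sets and 3693 of the 24646 below the median level. The 95% confidence intervals of 11730757_a_at and 11753579_a_at, 0.09 to 0.57 and 0.07 to 0.53, overlapped those of the bright ones. The changes are therefore not shown to differ between probe sets.

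The remaining 4 probe sets of IL6ST overlapped between groups or touched. Probe set 11753878_s_at had 5.36 and 5.24 in the knockdown arrays, against 5.14 and 5.27 in the mock arrays (change 0.09). Probe set 11753879_x_at had 4.46 and 4.21, against 4.38 and 4.66 in mock (change -0.18). Probe set 11730758_a_at had 4.06 and 4.23, against 4.05 and 4.29 in mock (change -0.02). Probe set 11753886_a_at had 3.59 and 3.60, against 3.59 and 3.49 in mock (change 0.06), and its first values in each group were identical. Their adjusted p-values lay between 0.549 and 0.953.

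OSMR encodes the chain that pairs with gp130 to receive oncostatin M. Its brightest probe set, 11759644_at, had 9.09 and 9.03 in the knockdown arrays, against 9.04 and 9.01 in the mock arrays, a log2 change of 0.03 (95% confidence interval -0.15 to 0.21, limma adjusted p = 0.871), and the groups overlapped. Probe set 11733185_at had 5.90 and 5.97, against 5.71 and 5.88 in mock (change 0.14), and 11733186_at had 5.99 and 5.90, against 5.92 and 5.64 in mock (change 0.16). Probe set 11752556_a_at had 4.57 and 4.52, against 3.92 and 4.33 in mock, a change of 0.42 (limma adjusted p = 0.245), with mock arrays 0.41 apart. Probe set 11733184_a_at had 4.09 and 4.09, against 4.32 and 3.87 in mock (change -0.01). As for IL6ST, the larger change stood on a dim probe set and not on the bright one. The 95% confidence interval of 11752556_a_at, 0.07 to 0.77, overlapped that of the bright one. The changes are therefore not shown to differ between probe sets.

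LIFR encodes the LIF-binding receptor chain. All 5 of its probe sets lay at or below percentile 20.2 of levels over all probe sets, where RMA values respond weakly to a change in mRNA. Probe set 11722687_a_at had 3.97 and 4.07 in the knockdown arrays, against 3.94 and 3.93 in the mock arrays (change 0.08). Probe set 11722685_s_at had 4.21 and 4.05, against 3.76 and 3.62 in mock, a change of 0.44 (limma adjusted p = 0.127). Probe set 11722686_a_at had 3.69 and 3.71, against 3.74 and 4.08 in mock (change -0.21). Probe set 11722688_a_at had 3.57 and 3.51, against 3.36 and 3.43 in mock (change 0.14), and 11758145_s_at had 2.81 and 2.96, against 3.01 and 2.85 in mock (change -0.05). The groups did not overlap in 4 of the 5, with the knockdown higher in 3 and lower in 1, and none passed. Over all probe sets the knockdown was higher without overlap in 24.2% and lower without overlap in 22.5%. Among the 24646 probe sets below the median level, the knockdown was higher without overlap in 3693 and lower in 4846. No direction is therefore given for LIFR. Without mock replicate 2 another probe set became the brightest of LIFR, and its change there was 0.37, against 0.03 to 0.13 without each of the other arrays.

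**Figure D3:**
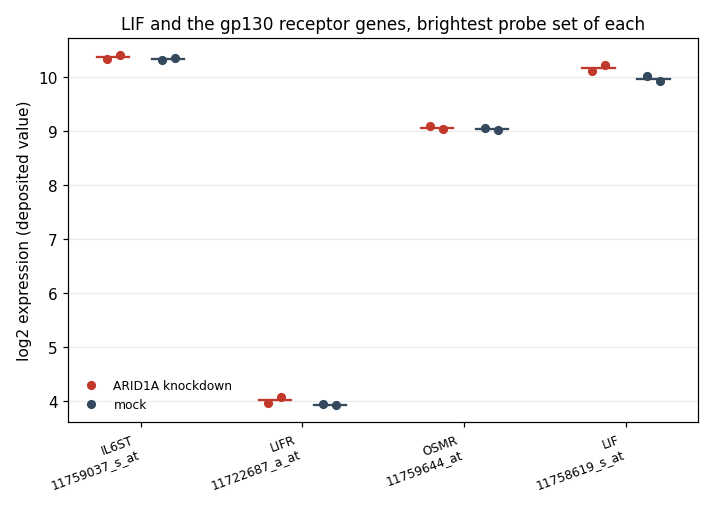
Log2 expression at the brightest probe set of IL6ST, LIFR, OSMR and LIF in each array, as deposited, with knockdown arrays (red) left of mock arrays (dark) and a bar at each mean of 2 arrays. The groups overlap for IL6ST and OSMR, and the largest of the 4 changes is that of LIF, 0.19, an order that turned without mock replicate 2, where LIFR had 0.37 and LIF 0.15.

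Over the 34 probe sets, 27 had a positive log2 change and 7 a negative one, with a median of 0.13. Without PIM1 it was 23 of 30 and a median of 0.09. Over all probe sets 49.1% were positive and the median was -0.00, and over all genes 48.6% were positive. Both knockdown arrays lay above both mock arrays in 18 of the 34, against 24.2% of all probe sets, and below them in 2, against 22.5% of all. At an unadjusted p under 0.05, 12 of the 34 were higher, against 9.10% of all probe sets, and 0 were lower, against 7.07% of all. Of those 12, 4 belonged to PIM1, 2 each to SOCS2 and IL6ST, and 1 each to STAT3, SOCS3, LIFR and OSMR. Probe sets of 1 gene measure the same mRNA, and these genes were chosen with the values known, so the counts describe the set and are not a test of it.

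**Figure D4:**
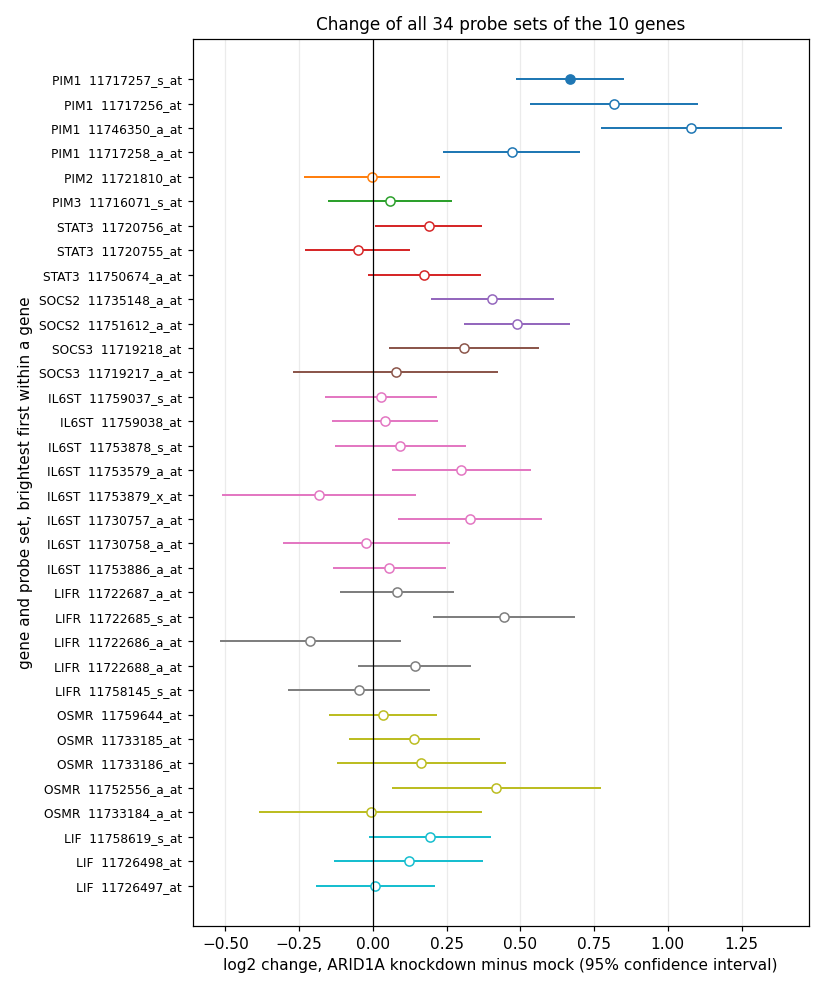
Log2 change, knockdown minus mock, of all 34 probe sets with 95% confidence intervals from limma, ordered by gene and by brightness within a gene. The filled point is the 1 probe set past the threshold, a PIM1 one at 0.67, and open points did not pass.

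The patterns closest to PIM1 over the 4 arrays were sought among 10613 other genes with a brightest probe set at or above the median level, by the distance between profiles centred on their own means. The nearest were AKR1C3 (distance 0.046), DDAH2 (0.048), IL1RAP (0.055), FOXN3 (0.069) and GRHL3 (0.070). Their log2 changes lay between 0.64 for IL1RAP, the accessory chain of the IL-1 receptor, and 0.71 for AKR1C3, an aldo-keto reductase. With 4 arrays in 2 groups, such likeness mostly reflects a change of similar size.

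Other genes of the pathway were taken from 7 lists, of which 69 genes were measured. In limma 0 of the 69 passed at their brightest probe set, and at an unadjusted p under 0.05, 12 were higher and 3 lower, against 9.76% and 7.25% of all genes. Of the 69, 34 had a positive change and 35 a negative one, with a median of -0.00.

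The other ligands and receptors had small or negative changes. Of 6 ligands 2 were positive, with a median of -0.04. IL27 had a log2 change of -0.09 and IL6 of -0.12 (95% confidence interval -0.53 to 0.30), both at probe sets below the median level. CTF1, cardiotrophin, had a change of -0.05. Of 4 receptor genes 1 was positive, with a median of -0.14. IL6R, the IL-6-binding chain, had a change of -0.34 at a probe set below the median level (95% confidence interval -0.72 to 0.05), CNTFR of -0.15 and IL11RA of 0.17. The other 3 probe sets of IL6R had changes of -0.08 to 0.12, and 2 of them were opposite in sign.

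Of the 4 Janus kinases 3 were positive, with a median of 0.13. JAK1, the main kinase of gp130, had 11.09 and 11.04 in the knockdown arrays, against 10.85 and 10.85 in the mock arrays, a log2 change of 0.22 (95% confidence interval 0.04 to 0.39, limma adjusted p = 0.238). JAK2 had a change of 0.22 (limma adjusted p = 0.260), and TYK2 of 0.04. Both other probe sets of JAK1 (0.22 and 0.23) and of JAK2 (0.24 and 0.26) had the same direction. Of the 4 other STAT genes measured 1 was positive, with changes of -0.14 for STAT5B, -0.07 for STAT4 and 0.05 for STAT6.

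Among 14 other inhibitors, 7 were positive and 7 negative, with a median of 0.03. The largest changes ran in opposite directions. SOCS6 had 8.54 and 8.63 in the knockdown arrays, against 8.22 and 8.05 in the mock arrays, a log2 change of 0.45 (limma adjusted p = 0.117). SOCS7 had 6.97 and 6.91, against 7.46 and 7.29 in mock, a change of -0.44 (limma adjusted p = 0.114). PIAS3, which binds STAT3 and blocks its DNA binding, had a change of 0.17, and its 4 other probe sets were split between both directions.

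The 26 other STAT3 targets were split evenly, 13 positive and 13 negative, with a median of -0.00, and a few had changes as large as that of PIM1. CEBPD, a transcription factor of the acute-phase response, had 10.23 and 10.36 in the knockdown arrays, against 9.63 and 9.58 in the mock arrays. Its log2 change was 0.69 (SE 0.0826, limma adjusted p = 0.0525), just short of the threshold. Its 4 other probe sets had changes of 0.37 to 0.82, and 2 of them passed, at 0.73 and 0.82 (limma adjusted p = 0.0477 and 0.0499). The brightest CEBPD probe set and both that passed end in _s_at or _x_at, suffixes for probes that can match more than 1 transcript. Probe set 11764029_at, without such a suffix, had a change of 0.50 (limma adjusted p = 0.0739). SERPINA3, an acute-phase protease inhibitor, had 6.12 and 6.51, against 5.38 and 5.56 in mock, a change of 0.85 (limma adjusted p = 0.0923). Its other probe set, 11716490_a_at, had 5.58 and 5.88, against 4.56 and 4.70 in mock, and rose by 1.10 (limma adjusted p = 0.0499). IRF1, an interferon-response factor, had 9.49 and 9.55, against 9.11 and 9.10 in mock, a change of 0.42 (limma adjusted p = 0.0934). Of its 3 other probe sets 2 were positive, up to 0.68, and a dim one had -0.04.

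Of 11 PIM substrates 7 were positive, with a median of 0.02. MAP3K5, the stress kinase ASK1, had a log2 change of 0.48 (limma adjusted p = 0.108), the phosphatase CDC25C of 0.27 and BAD, a death-promoting protein that PIM kinases inactivate by phosphorylation, of 0.19. PIM kinases act on these as proteins, so their mRNA levels do not measure kinase activity.

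**Figure D5:**
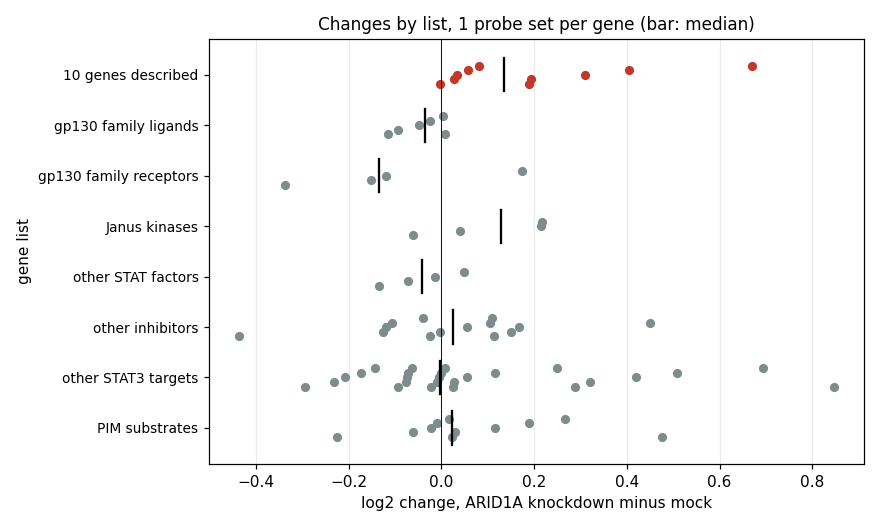
Log2 change, knockdown minus mock, of the 10 genes (red) and of the 69 other pathway genes by list (grey), 1 point per gene at its brightest probe set, with a bar at each median. Medians lie between -0.14 for the other receptors and 0.14 for the 10 genes, and the points farthest right are SERPINA3 at 0.85 and CEBPD at 0.69 among the other STAT3 targets and PIM1 at 0.67.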

How the data were processed

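RNA from the 4 OE33 samples, 2 per condition, was hybridised to Affymetrix PrimeView arrays. The authors deposited 1 log2 value per probe set and array, and the submitters' processing notes name RMA and Partek without a version or role. RMA gives log2 values, and the range seen fits that scale. RMA sets arrays to a common distribution, so a change in total mRNA cannot be seen, and changes of dim probe sets are understated. Arrays give no read depth, and their number limits the precision. No scan batch was known, so none was tested.

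Of 49372 probe sets, 79 controls were left out. Probe sets were named from the platform annotation, of which 44988 listed 1 gene, 1832 listed several and 2473 listed no gene, and the last 2 kinds were not named. No symbol needed updating. Each gene is represented by its brightest probe set, by mean log2 value over all arrays. Groups were compared with limma 3.58.1 (R 4.3.3), two-sided, without pairing, with Benjamini-Hochberg adjustment over all 49293 probe sets, and all adjusted p-values are from this fit unless a setting is named. Residual degrees of freedom were 2, with 3.62 more from the prior. The fit was also run on arrays simulated from its own prior spread with independent normal noise. That check cannot show how the fit does where data depart from this model. P-values measure the spread between these arrays. The 10 genes and the pathway lists were chosen with earlier results of these data known. From each list the text names the 3 genes with the smallest unadjusted p. Replicate numbers are shared between groups without a stated link, so arrays of the same number were not taken as pairs. The differences between replicates 1 and 2 correlated at -0.20 between conditions, which does not settle whether they are pairs. Alternatives were median centring, quantile normalization, no dim probe sets (under the median level of 5.90), no _s_at or _x_at probe sets, a replicate block, an intensity trend, gene means and leaving out each array.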

Additional observations from a re-analysis of the deposited data

How the results depend on the processing

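The count of probe sets past the threshold moved with the settings, from 156 to 671 with median centring and 297 with quantile normalization. It was 2106 of the 24647 tested without dim probe sets, 23 of the 34921 tested without shared probe sets and 3209 with an intensity trend. For the 34 probe sets described it was 1 as deposited, and 4, 2, 4, 0 and 6 in the same order. Of the 34, 15 were tested without dim probe sets and 26 without shared ones. All of the calls among the 34 were PIM1 or SOCS2. For the 10 genes it was 1 as deposited, 2 with the trend and 2 with the mean of all probe sets of a gene. It was 2 of the 9 tested without dim probe sets and 0 of the 9 tested without shared probe sets. For the 69 other pathway genes it was 0 as deposited, 2 with median centring (CEBPD and SERPINA3) and 1 with quantile normalization (CEBPD). It was 6 of the 50 tested without dim probe sets, 0 of the 60 tested without shared ones, 9 with the trend and 4 with gene means. With the replicate block all 4 counts were 0, and ARID1A itself did not pass (log2 change -1.78, limma adjusted p = 0.217). The labels give no pairing, and with crossed numbers, a choice made after seeing the data, the counts were also 0 and ARID1A had -1.78. With any 1 array left out the counts ranged from 0 to 0 and ARID1A from -1.80 to -1.75, again not past the test. The block and these settings leave 1 residual degree of freedom and do not show how stable single calls are. Of 118 changes of the 10 genes in other settings, 104 kept direction and call, and 7 of PIM1 lost the call at 0.64 to 0.82. In 3, SOCS2 gained it. With 1 array left out, 4 near 0 turned sign: PIM2 ranged from -0.0999 to 0.0934, PIM3 from -0.0016 to 0.116 and IL6ST from -0.0088 to 0.0644. LIFR could not be given without dim probe sets, or PIM3 without shared ones.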
